A study of Rattus norvegicus with 11 samples.

Results

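The 7 genes described here, Arntl, Clock, Per1, Per2, Per3, Nr1d1 and Dbp, are core components or direct outputs of the circadian clock, and they were taken from the 32883 genes of a bulk RNA-seq count table of rat heart. All 7 had enough counts to be tested. They were chosen by name, not by their values, though earlier results of these data were known. Their identifiers are ENSRNOG00000014448 (Arntl), ENSRNOG00000002175 (Clock), ENSRNOG00000007387 (Per1), ENSRNOG00000020254 (Per2), ENSRNOG00000018413 (Per3), ENSRNOG00000009329 (Nr1d1) and ENSRNOG00000021027 (Dbp). The tables used here pair no other identifier with a name, so other clock genes and the markers that would check the labelled heart tissue were not analysed here.

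The 11 libraries came from cardiac tissue of Sprague Dawley rats in 4 groups. The control group (libraries 95 and 115) received none of the treatments. The other 3 groups all received isoproterenol, a drug that stimulates beta-adrenergic receptors and strains the heart, at a daily dose of 5 mg/kg given over 10 days. The isoproterenol group (libraries 79, 98 and 119) had that drug alone, and the canagliflozin group (libraries 78, 133 and 143) also had canagliflozin, an inhibitor of the glucose transporter SGLT2, at a daily dose of 3 mg/kg given over 4 weeks. Rats of the exercise group (libraries 57, 103 and 113) had isoproterenol and 60 min of daily exercise over 4 weeks. Canagliflozin is not named in the exercise samples' own labels, although the series title speaks of a combination. The labels do not say that each library is a separate animal, so the p-values speak of variation among the libraries, which may be technical. They also give no hour of sampling and no lighting schedule, so the part of sampling time in any value below was not tested.

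The molecular clock is a loop of transcription that turns over about daily in most cells, heart muscle cells among them. The proteins of Arntl (also called Bmal1) and Clock pair and bind E-box sequences to switch on the Per genes, Nr1d1 and Dbp. The PER proteins then hold the pair back, and the protein of Nr1d1, REV-ERB alpha, represses Arntl through ROR elements. Dbp encodes a factor that binds D-box sequences and carries the rhythm to output genes. In rodent tissues Arntl is known to peak at a different time of day from Dbp, Nr1d1 and the Per genes.

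These motifs were searched for in the 250 bases before each annotated start of the 7 genes, 9 starts in all, in RefSeq promoter sequences of the rat build GRCr8. The searches covered both strands for the E-box CACGTG, the D-box TTATGNAA and the ROR motif AGGTCA, and no match overlapped another. Of 33469 promoters of that length, 5.59% held the E-box, 3.28% the D-box and 14.1% the ROR motif. Of the 9 starts, 1 held each motif, and these matches are shown with the motif in capitals because they are the elements through which the clock genes are known to act on each other. The Arntl window is chr1:176766298-176766327 on the plus strand, with the ROR motif 15 bases before the start used here, which lies 106 bases inside the annotated gene. The Per2 window is chr9:99497167-99497196 on the minus strand, with the D-box 192 bases before the start, outside the annotated gene. The Nr1d1 window is chr10:84229628-84229657 on the minus strand, with the E-box 191 bases before the second of 2 annotated starts, which lies 2358 bases inside the gene.
Arntl: gggaaggcagaaagtAGGTCAgggacggag
Per2: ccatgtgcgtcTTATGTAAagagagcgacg
Nr1d1: tgtcagctcccaCACGTGtctggggatcct

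The 250 bases before the start of Dbp are at chr1:105312006-105312255 on the plus strand and end at the base before the annotated gene. They are shown because Dbp ran most closely against Arntl in the values below, and they held none of the 3 motifs, which says only that these letters are not in this window.
Dbp: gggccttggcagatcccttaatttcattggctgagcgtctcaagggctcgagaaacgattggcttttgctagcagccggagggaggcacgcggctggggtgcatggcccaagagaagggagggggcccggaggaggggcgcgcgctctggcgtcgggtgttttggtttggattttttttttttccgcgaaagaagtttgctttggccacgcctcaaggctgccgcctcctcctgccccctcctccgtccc

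The libraries held between 14742164 and 25034831 counts, and the 7 genes between 36 and 3677 counts in a library. Control library 95 stood apart from the rest. It had counts in 14692 genes, against 16916 to 17703 elsewhere, 42.5% of its counts fell on 10 genes, against 22.6% to 34.3% on the top 10 elsewhere, and its TMM scaling factor was 0.568, against 0.910 to 1.23 elsewhere. The differences from control that are named below are also given without it. In bulk tissue, fewer cells of a type and less RNA per cell cannot be told apart.

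Compared per length of transcript, as FPKM deposited by the authors, Dbp had the highest median level over the 11 libraries, 14.1 FPKM (range 2.5 to 50.9). Per1 followed at 14.0 FPKM (3.50 to 33.1), Nr1d1 at 11.4 FPKM (0.733 to 29.9) and Per2 at 8.28 FPKM (2.22 to 13.5). Arntl lay lower, at 2.504 FPKM (0.915 to 12.4), with Clock at 1.49 FPKM (0.474 to 3.31) and Per3 at 1.24 FPKM (0.497 to 4.63) below it. Each gene overlapped its neighbours in this order, so the order holds for medians only. The levels that follow are CPM, read counts divided by a TMM-scaled library size, which compare libraries within a gene and not genes with each other.

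Arntl, the activating partner whose loss stops the clock, had 40.7, 22.5 and 32.1 CPM in isoproterenol libraries 79, 98 and 119, and 6.57 and 3.41 CPM in control libraries 95 and 115. In the canagliflozin libraries 78, 133 and 143 it had 26.7, 4.50 and 6.05 CPM. In the exercise libraries 57, 103 and 113 it had 24.2, 4.84 and 2.47 CPM. All 3 isoproterenol libraries were above both controls, while the canagliflozin and exercise groups each held 1 library near the isoproterenol values and 2 near the controls. The 11 values thus fell into 2 ranges, 2.47 to 6.57 CPM in 6 libraries and 22.5 to 40.7 CPM in 5 libraries, with a gap of 1.76 on the log2 scale that took up 44.3% of the whole log2 range.

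Dbp, the output activator, had 59.5 and 110 CPM in control libraries 95 and 115, and 9.004, 19.2 and 19.5 CPM in isoproterenol libraries 79, 98 and 119. In canagliflozin libraries 78, 133 and 143 it had 13.5, 124 and 74.0 CPM. In exercise libraries 57, 103 and 113 it had 48.3, 81.0 and 152 CPM. Every isoproterenol library was below every control and every exercise library, and canagliflozin library 78 lay among the isoproterenol values. Dbp was thus low in the libraries where Arntl was high, with library 57 in between.

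Per3, a Period gene whose loss leaves rhythms largely intact in mice, had 11.1 and 22.7 CPM in control libraries 95 and 115 and 4.34, 8.37 and 7.76 CPM in isoproterenol libraries 79, 98 and 119. In canagliflozin libraries 78, 133 and 143 it had 5.68, 20.02 and 29.9 CPM. In exercise libraries 57, 103 and 113 it had 7.30, 16.3 and 20.6 CPM. The 5 libraries with the lowest Per3, at 8.37 CPM or less, were the 5 in the higher range of Arntl, and the other 6 were at 11.1 CPM or more.

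Nr1d1, which encodes the repressor of Arntl, had 31.3 and 21.3 CPM in control libraries 95 and 115 and 11.7, 44.4 and 28.5 CPM in isoproterenol libraries 79, 98 and 119. In canagliflozin libraries 78, 133 and 143 it had 1.96, 35.2 and 49.5 CPM. In exercise libraries 57, 103 and 113 it had 79.6, 24.1 and 33.0 CPM. No pair of groups was separate. The lowest value, in library 78, rested on 36 counts (95% Poisson interval 25.2 to 49.8, counting error only). Libraries 78 and 57, the only ones of their groups in the higher range of Arntl, held the lowest and the highest Nr1d1 of all 11.

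Per1, a Period gene that outside signals can induce quickly, had 27.6 and 115 CPM in control libraries 95 and 115 and 53.4, 114 and 13.9 CPM in isoproterenol libraries 79, 98 and 119. It had 75.3, 34.0 and 78.3 CPM in canagliflozin libraries 78, 133 and 143, and 17.5, 81.7 and 51.6 CPM in exercise libraries 57, 103 and 113. The 4 groups overlapped throughout, and the lowest values were in libraries 119 and 57.

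Per2, a main repressor of the Arntl and Clock pair, had 71.6 and 60.1 CPM in control libraries 95 and 115 and 30.1, 66.1 and 13.5 CPM in isoproterenol libraries 79, 98 and 119. It had 55.5, 47.4 and 62.4 CPM in canagliflozin libraries 78, 133 and 143, and 13.4, 44.8 and 40.9 CPM in exercise libraries 57, 103 and 113. All 3 exercise libraries were below all control and canagliflozin libraries. As for Per1, libraries 119 and 57 were lowest.

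Clock, the partner of Arntl, had 26.4 and 13.1 CPM in control libraries 95 and 115 and 21.6, 10.6 and 15.1 CPM in isoproterenol libraries 79, 98 and 119. It had 12.4, 13.4 and 27.0 CPM in canagliflozin libraries 78, 133 and 143, and 4.96, 16.1 and 5.11 CPM in exercise libraries 57, 103 and 113. Exercise libraries 57 and 113 were the lowest of the 11, and library 103 lay within the range of the others.

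**Figure D1:**
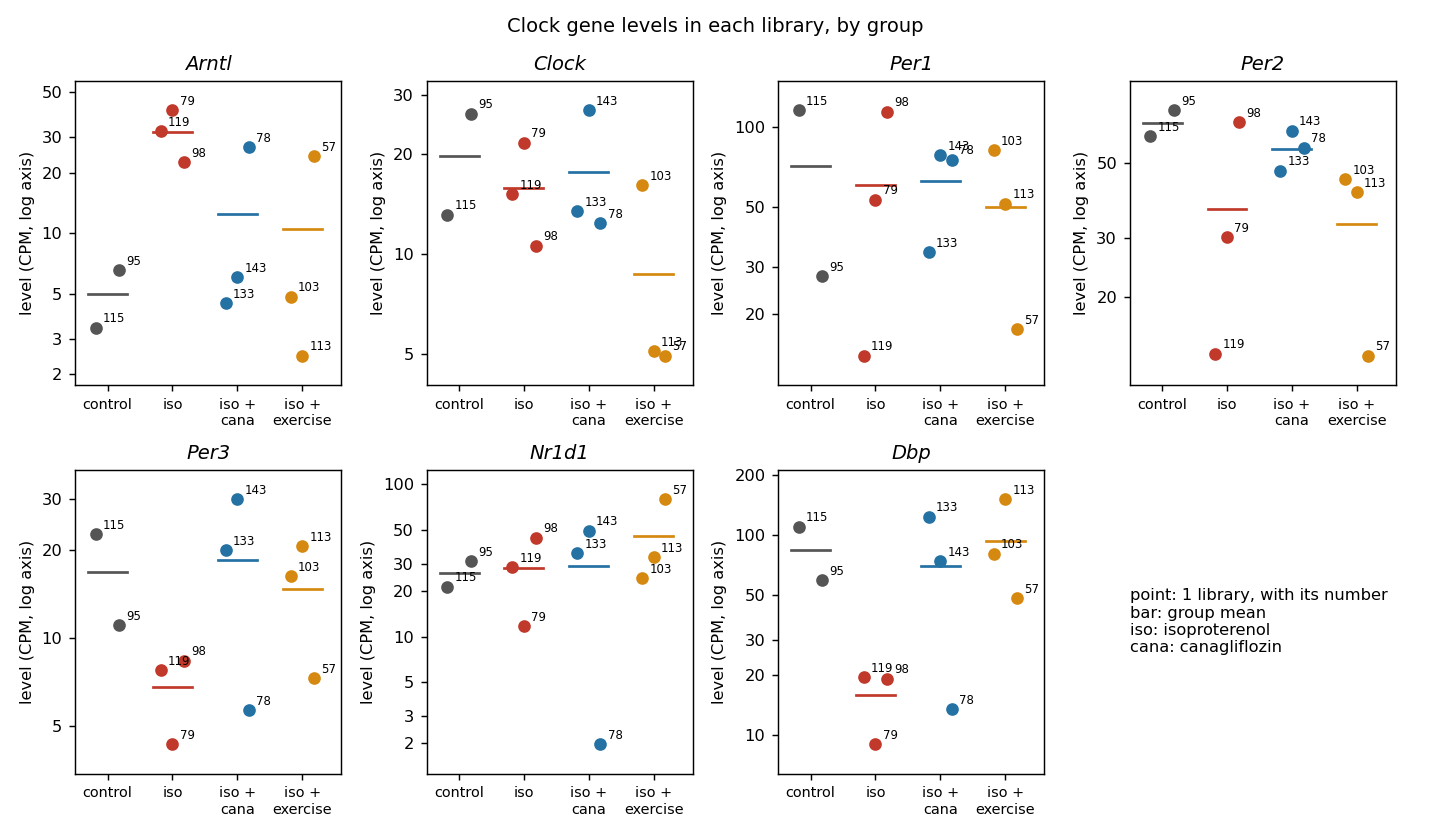
Level of each clock gene (CPM, log axis) in the 4 groups, 1 point per library with its number. The 3 isoproterenol libraries lie above both controls for Arntl (22.5 to 40.7 against 3.41 to 6.57 CPM) and below them for Dbp and Per3, and canagliflozin library 78 and exercise library 57 lie apart from the other 2 libraries of their groups for Arntl.

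The comparison of isoproterenol with control asked how the drug alone was associated with the clock genes. Arntl was higher by 2.68 on the log2 scale (SE 1.07, 95% interval 0.31 to 5.06), Dbp differed by -2.41 (SE 0.77, interval -4.13 to -0.70) and Per3 by -1.31 (SE 0.65, interval -2.75 to 0.13). By edgeR's quasi-likelihood test with Benjamini-Hochberg adjustment over 14979 genes, 0 of the 7 genes passed an adjusted p of 0.05 (0% of all genes did), and the adjusted p was 0.840 for each of these 3. Before that adjustment Arntl was at 0.0304 and Dbp at 0.0103 in the edgeR test, so 2 of the 7 genes were under an unadjusted p of 0.05, against 5.21% of all genes. The groups did not overlap for 3 of the 7 genes, Arntl, Dbp and Per3, against 13.4% of all genes. The median absolute log2 difference was 0.85 over the 7 genes and 0.40 over all genes tested. Clock, Per1, Per2 and Nr1d1 differed by between -0.85 and 0.10, with every interval holding 0. Without control library 95 the differences were 3.23 for Arntl, -2.78 for Dbp and -1.72 for Per3, and between -0.92 (Per1) and 0.42 (Nr1d1) for the other 4. For Arntl, Dbp and Per3, without control library 115 they were 2.29, -1.88 and -0.68.

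Canagliflozin with isoproterenol was compared with isoproterenol alone, to ask what the added drug was associated with. Dbp was higher by 2.15 on the log2 scale (SE 0.72, interval 0.55 to 3.74), Per3 by 1.44 (SE 0.60, interval 0.11 to 2.77), and Arntl differed by -1.36 (SE 0.86, interval -3.27 to 0.55). The groups overlapped for each of the 7 genes, against 9.48% of all genes for which they did not. For Arntl, Dbp and Per3 it was library 78 that lay within the isoproterenol values, with the other 2 canagliflozin libraries outside them. The adjusted p from edgeR was 0.999 for all 7, so 0 were called (0% of all genes), and 2 of the 7 were under an unadjusted p of 0.05 (Dbp 0.0132, Per3 0.0361) against 3.3% of all genes. The other 4 genes differed by 0.04 to 0.59, with intervals holding 0. Without library 78 the Arntl difference was -2.59, and without library 143 the Per3 difference was 0.92. With the dependence of counts on gene length in each library as a covariate, Dbp differed by 0.84 and Per3 by 0.30.

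Exercise with isoproterenol was set against isoproterenol alone in the same way, and it shares the isoproterenol libraries with the comparison above. Dbp was higher by 2.56 on the log2 scale (SE 0.73, interval 0.94 to 4.17), with no overlap between the groups. Per3 was higher by 1.11 (SE 0.59, interval -0.21 to 2.43) and Arntl differed by -1.60 (SE 0.86, interval -3.52 to 0.32), with overlap because of library 57. By edgeR 0 of the 7 genes were called (adjusted p of 1 for each, 0% of all genes called), 1 was under an unadjusted p of 0.05 (Dbp 0.00545) against 1.48% of all genes, and 1 did not overlap against 8.61% of all genes. Without library 57 the Arntl difference was -3.12. Without libraries 57, 78, 95 and 98, a set known from earlier results that leaves 1 control library, it was -3.34. That set drops library 57, the only exercise library with high Arntl (24.2 CPM), and library 98, the lowest isoproterenol library (22.5 CPM). The size of the difference thus depended on which libraries were used.

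Both groups with an added treatment were also set against the controls. In the canagliflozin group, 0 of the 7 genes were called by edgeR (0% of all genes), 0 were under an unadjusted p of 0.05 against 14.4% of all genes, and 0 did not overlap against 26.3%. Arntl differed there by 1.32 (SE 1.01), which was 0.09 without library 78 and 1.86 without control library 95. Dbp differed by -0.27 (SE 0.76), which was 0.22 without library 78, 0.26 without control library 115 and -0.65 without control library 95. In the exercise group, 0 of the 7 were called (0% of all genes), 0 were under an unadjusted p of 0.05 against 4.85%, and 1 did not overlap against 17.4%. That gene was Per2, lower in exercise by a log2 difference of -0.996 (SE 0.605, edgeR adjusted p = 0.852), which was -0.62 without library 57 and -0.86 without control library 95. Clock differed by -1.18 (SE 0.59), which was -0.59 without control library 95 and -1.97 without library 103. Arntl differed by 1.09 (SE 1.002), which was -0.44 without library 57, 1.64 without control library 95 and 0.69 without control library 115.

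Exercise and canagliflozin were compared with each other last. By edgeR 0 of the 7 genes were called (0% of all genes) and 0 were under an unadjusted p of 0.05 against 2.42% of all genes. Per2 was the 1 gene whose groups did not overlap, against 14.5% of all genes, with a log2 difference of -0.74 (SE 0.55), which was -0.36 without library 57. Clock differed by -1.01 (SE 0.54), between -1.80 without library 103 and -0.57 without library 143. Arntl differed by -0.24 (SE 0.85), between -1.76 without library 57 and 0.99 without library 78. In the joint edgeR test over the 4 groups 0 of the 7 were called (0% of all genes), with Dbp at an unadjusted p of 0.0306 (adjusted p = 0.909) where 5.09% of all genes were under 0.05. DESeq2 and limma-voom also called 0 of the 7 in each of these comparisons. Between exercise and control, however, DESeq2 gave an adjusted p to only 2425 genes. Arntl, Clock and Per2 were not among them, so DESeq2 could not call these genes there. Of the genes it adjusted, DESeq2 called 1.44% between canagliflozin and control, 0.495% between exercise and control, 0.00963% between canagliflozin and isoproterenol, 0.00481% between exercise and canagliflozin and 0.72% in the joint test, and 0% in the other 2.

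**Figure D2:**
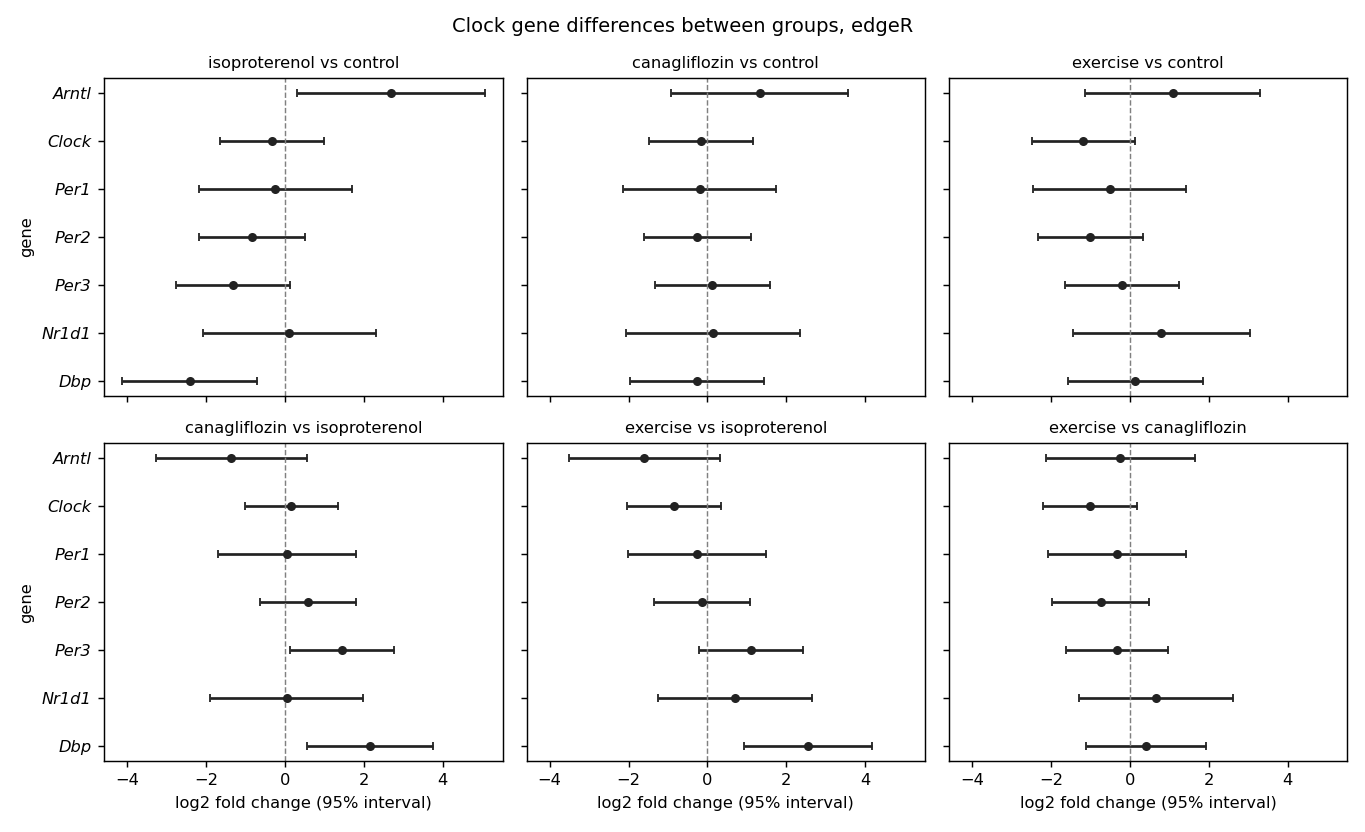
Log2 differences of the 7 clock genes between groups, with 95% intervals from edgeR, in 6 panels, 1 per pair of groups; the dashed line marks no difference. Arntl and Dbp lie on opposite sides of 0 in the comparison of isoproterenol with control (2.68 and -2.41), and their intervals are the only ones there that exclude 0.

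The next question was whether Arntl ran against Dbp, Nr1d1 and the Per genes from library to library, as sampling at different times would give. With the 11 libraries in order of rising Arntl, 113, 115, 133, 103, 143, 95, 98, 57, 78, 119 and 79, Dbp was at 152, 110, 124, 81.0, 74.0, 59.5, 19.2, 48.3, 13.5, 19.5 and 9.004 CPM. Dbp was at 59.5 CPM or more in all 6 libraries of the lower Arntl range and at 48.3 CPM or less in all 5 of the higher range. Among the 10 pairs of libraries of the same group, Dbp moved opposite to Arntl in 9 and so did Per3. The count was 6 of 10 for Per1, 6 for Nr1d1, 5 for Per2 and 4 for Clock. The pairs share libraries and are a description.

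**Figure D3:**
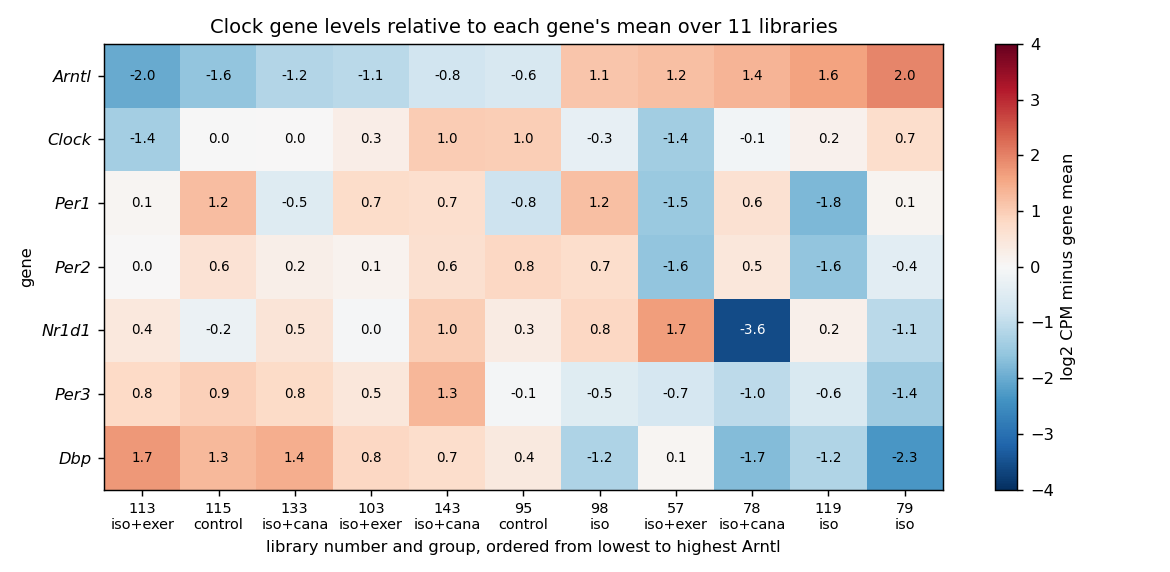
Log2 CPM of each clock gene minus its mean over the 11 libraries, with libraries in order of rising Arntl from left to right and groups marked. Arntl is below its mean in the 6 libraries on the left and above it in the 5 on the right, and Dbp and Per3 lie the opposite way except for Per3 in library 95 and Dbp in library 57, each within 0.1 of its mean.

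A slope on log2 CPM of Arntl, with the 4 groups each given their own mean, was fitted for every other tested gene. Dbp had a slope of -0.76 on the log2 scale per log2 unit of Arntl (SE 0.16, interval -1.13 to -0.39) and Per3 of -0.65 (SE 0.14, interval -0.98 to -0.33). By p-value they ranked 14 and 16 of 14978 genes, with unadjusted p of 0.00116 and 0.00125 from edgeR. With Benjamini-Hochberg adjustment both had an edgeR adjusted p of 0.700, and 0 of the 6 clock genes were called (0% of all genes), while 2 of the 6 were under an unadjusted p of 0.05 against 5.75% of all genes. DESeq2 called both Dbp (adjusted p = 0.00853) and Per3 (adjusted p = 0.0128), among 41 genes, or 0.237% of those it adjusted. limma-voom called 0 of the 6.

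The other 4 clock genes had slopes whose intervals held 0. The slope was -0.32 for Per2 (interval -0.80 to 0.16), -0.36 for Per1 (-1.12 to 0.40), -0.10 for Clock (-0.67 to 0.46) and -0.08 for Nr1d1 (-1.02 to 0.86). Libraries 78 and 57 differ most in Arntl from the rest of their groups, and the slopes moved when either was left out. Without library 78 the slope was -0.56 for Dbp, -0.75 for Per1, -0.55 for Per2 and 0.35 for Nr1d1. Without library 57 it was -1.17 for Dbp, -0.06 for Per1, -0.08 for Per2, 0.22 for Clock and -1.50 for Nr1d1. For Per3 it lay between -0.86 and -0.52 with any 1 library left out. Without libraries 57, 78, 95 and 98 the slope was -0.29 for Per3, and it turned positive for Clock, Per1 and Per2, at 1.84, 1.52 and 0.58.

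With Dbp in place of Arntl as the measure of a library's state, Arntl had a slope of -1.01 (SE 0.20) and Per3 of 0.77 (SE 0.15), both with an edgeR adjusted p of 0.646. Nr1d1 had a slope of 0.83 (SE 0.51) and Per2 of 0.12 (SE 0.25). Per1 was at 0.06 (SE 0.37) and Clock at -0.05 (SE 0.27). By p-value Arntl and Per3 ranked 12 and 13 of 14978 genes in this edgeR test. Among the clock genes they were therefore the ones that followed Dbp within groups most closely, and the intervals of the other 4 held 0.

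**Figure D4:**
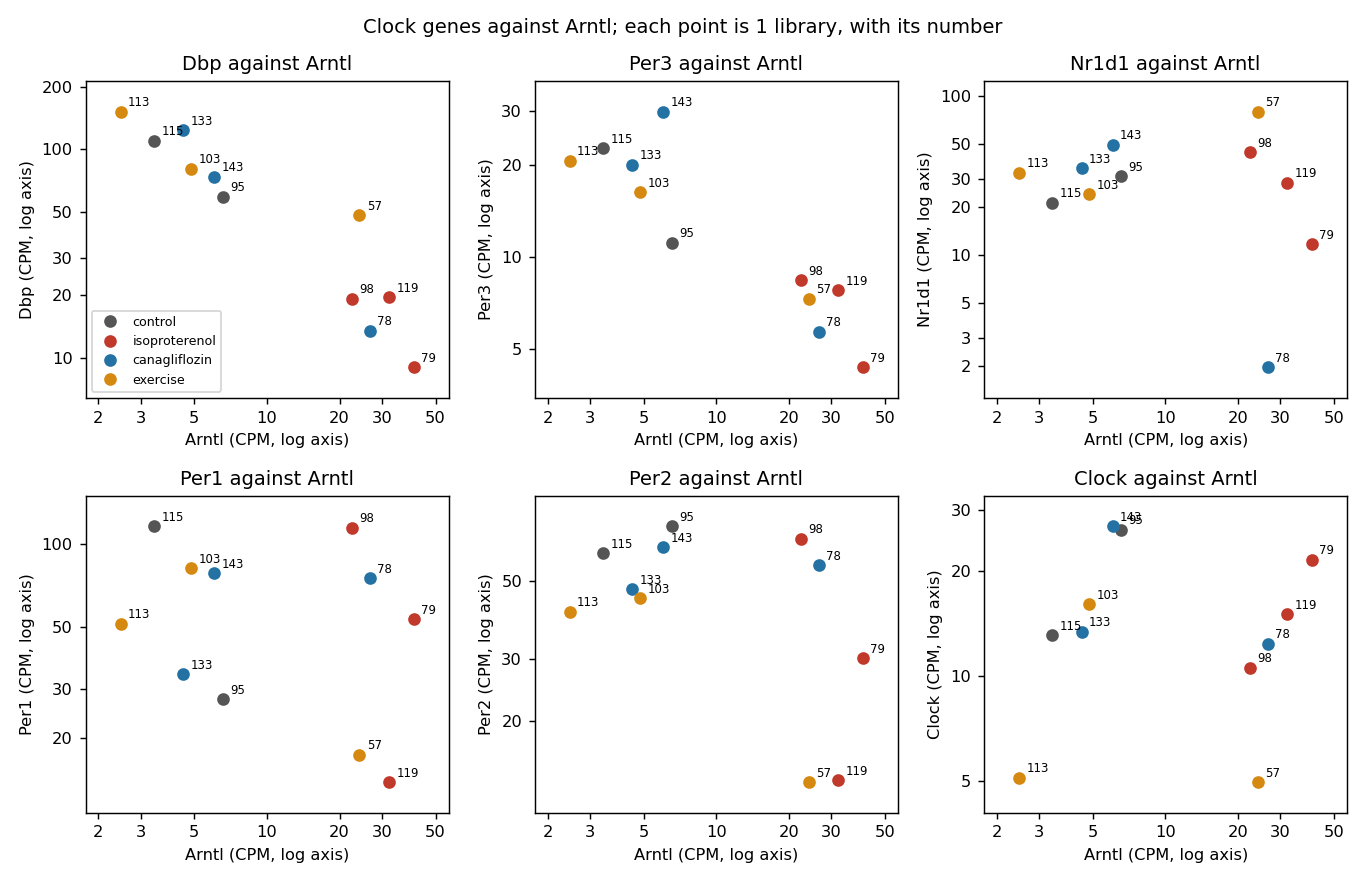
Each of the other 6 clock genes against Arntl (CPM, both axes log), 1 point per library, coloured by group and numbered. Points for Dbp and Per3 run from upper left to lower right (Dbp from 152 CPM in library 113 to 9.004 CPM in library 79), while for Nr1d1 libraries 78 and 57 lie at opposite ends, 1.96 and 79.6 CPM, at similar Arntl.

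Since Arntl fell into 2 separate ranges, no correlation with it was tested over all libraries. Within the 6 libraries of the lower range, 2 of its 6 relations passed an exact permutation test (two-sided, Benjamini-Hochberg over 6). These libraries are controls 95 and 115, canagliflozin 133 and 143, and exercise 103 and 113. The permutations ignored group, so differences between groups are part of these relations, and no test within groups was run for them. Dbp fell as Arntl rose (Pearson r = -0.909, exact p = 0.0139, adjusted p = 0.0417, Spearman rho -0.943) and Clock rose with it (r = 0.962, exact p = 0.00278, adjusted p = 0.0167, rho 0.943). Both rank correlations had an exact p of 0.0167 and an adjusted p of 0.05. Without libraries 113 and 95, the farthest from the median of Arntl, r was -0.732 for Dbp and 0.869 for Clock. With library totals alone in place of TMM factors, r was -0.0925 for Dbp (exact test, adjusted p = 0.860) and 0.922 for Clock (adjusted p = 0.05), and neither passed. Library 95, whose TMM factor stands apart, is among these 6, and without it r with TMM factors was -0.874 for Dbp and 0.953 for Clock. The higher range held 5 libraries, too few for a correlation.

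Among the 15 pairs formed by the other 6 genes, 1 passed a two-sided permutation test over the 11 libraries after adjustment over the 15. Per3 and Dbp, both targets of the Arntl and Clock pair, ran together (r = 0.894, p = 0.00036, adjusted p = 0.0054), with a Spearman rho of 0.845 (permutation p = 0.00195, adjusted p = 0.0292). Without libraries 143 and 79, the farthest from the median of Per3, r was 0.921. Centred on the group means r was 0.913 (exact permutation within groups, p = 0.0139, adjusted p = 0.208), and without libraries 57, 78, 95 and 98 it was 0.922 (exact adjusted p = 0.168), so the call was lost in both.

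Per1 and Per2 had r = 0.753 (permutation p = 0.00828, adjusted p = 0.0621) and a rho of 0.518, and r was 0.158 without libraries 119 and 57. Without control library 95 the relation passed (r = 0.917, adjusted p = 0.00975 by permutation). Its size thus depended on libraries 119, 57 and 95. Nr1d1 and Dbp had r = 0.496 (permutation adjusted p = 0.509), which became -0.255 without libraries 78 and 79. The sign of the relation between Nr1d1 and Dbp thus turned when both of those libraries were left out. Without library 78 alone r was 0.302, and without library 79 alone it was 0.438. Centred on the group means r was 0.686.

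As a description over all 11 libraries, genes were ranked by the correlation of their log2 CPM with that of Arntl, a measure taken across its 2 separate ranges and given with no p. Of 14978 genes, Dbp ran most against Arntl and Per3 ranked 3, while Per2 ranked 455, Per1 2054, Nr1d1 2251 and Clock 8358. ENSRNOG00000019383 ranked between Dbp and Per3 (r = -0.913) and ENSRNOG00000002456 just after (r = -0.887), the latter with no more than 40 counts in a library. The genes most like Arntl were ENSRNOG00000020525 (r = 0.921) and ENSRNOG00000057713 (r = 0.907). The central 90% of genes lay between -0.449 and 0.492.

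The clock genes also varied between libraries of the same group. The SD of log2 CPM about the group means was 1.53 for Nr1d1, above 99% of the 200 genes nearest to it in level, whose median SD was 0.365. By group, the SD of Nr1d1 was 2.52 among canagliflozin libraries, against 0.392 to 0.976 in the other groups, and without library 78 the SD over all groups was 0.792 (above 88.5% of its neighbours). Per1 had an SD of 1.21 (above 96.5% of its 200 neighbours), Dbp 1.08 (above 94.5%, and 0.688 without library 78) and Arntl 1.20 (above 91.5%). Per2 had 0.809 (above 90%), Per3 0.872 (above 85%) and Clock 0.718 (above 77%). All 7 genes were thus more variable than the median of their neighbours, also with any 1 library left out. Without control library 95 the SDs ran from 0.719 for Clock to 1.64 for Nr1d1, above 84.5% to 99.5% of the neighbours. By group, the SD of Arntl was 0.427 among isoproterenol libraries, 1.36 among canagliflozin libraries and 1.66 among exercise libraries.

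**Figure D5:**
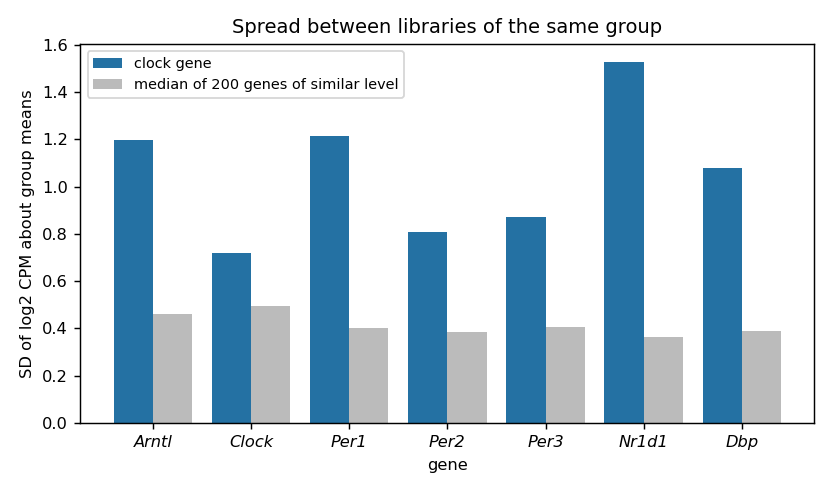
SD of log2 CPM about the group means for each clock gene, beside the median SD of the 200 genes of most similar level; bars start at 0. Nr1d1 is highest at 1.53, a value that is 0.792 without library 78, and every clock gene lies above its neighbours' median.

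Measures of library quality were set beside these values. The rank correlation across genes between gene length and a library's deviation from the mean, written as rho, was highest in libraries 143 (0.388) and 133 (0.283) and lowest in libraries 95 (-0.227) and 57 (-0.196). Of these, 143, 133 and 95 are in the lower range of Arntl and 57 is in the higher one. With that trend as a covariate the slope on Arntl was -0.54 for Dbp (edgeR, unadjusted p = 0.0200), -0.38 for Per3 (unadjusted p = 0.0258) and -0.79 for Per2 (unadjusted p = 0.0142). The slope was then -0.72 for Per1, 0.10 for Clock and 0.20 for Nr1d1. The edgeR adjusted p was 0.99997 for each, and 393 of the 14978 genes were under an unadjusted p of 0.05. The total count of the 5 libraries in the higher range, 17963229 to 21457916, lay inside that of the other 6. The share of counts on the top 10 genes was 32.4% to 34.3% in higher-range libraries 57, 78, 79 and 119, and 22.6% in 98. In lower-range libraries 103, 113, 115, 133 and 143 it was 23.1% to 28.4%, and 42.5% in 95. TMM factors of those same sets were 0.910 to 1.02 (98: 1.18) and 1.03 to 1.23 (95: 0.568). Both measures thus went with the Arntl ranges except in libraries 98 and 95, and their part in the values was not tested.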

How the data were processed

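Bulk RNA-seq counts per gene and FPKM values of 11 rat heart libraries were used. Per the submitters' processing notes, reads were processed with CASAVA 1.8 and aligned with TopHat2 2.0.6. The counting tool, strand setting, build and annotation were not given in the sources used here. Reads of overlapping or antisense genes can therefore not be told apart. The authors deposited whole-number counts per gene, used here for every test, and FPKM values, used for levels between genes only. The 7 genes and the lists were chosen with earlier results of these data known.

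Counts were scaled by TMM and tested in edgeR 4.0.16 (R 4.3.3) with glmQLFit and glmQLFTest over 14979 genes kept by filterByExpr, with 4 group means fitted to all 11 libraries and Benjamini-Hochberg adjustment over all genes, calls at 0.05. The same test gave the slope on log2 CPM of Arntl (prior count 2) within groups. Standard errors are the log2 difference divided by the square root of F. Correlations used log2 CPM with 100000 permutations, or all of them for fewer than 10 libraries. They were planned over all pairs, but Arntl fell into 2 separate ranges, seen only with the values, so its 6 relations were tested in the 6 libraries of the lower range and the other 15 pairs over all libraries. The scripts were tested on simulated data with less spread between libraries than these data, so that test does not show how many true differences were missed here. DESeq2 1.42.0, limma-voom (limma 3.58.1), other scalings and filters, covariates and left-out libraries were run as alternatives. Depth of 14742164 to 25034831 counts gave every clock gene at least 36 counts, and the Poisson interval printed for a count covers counting error only, while intervals of differences and slopes come from the spread among libraries. Leaving out each library other than 95 in the measure of spread was chosen after seeing the data. The genes named are the 7 and, of the other genes, the 2 with the highest and the 2 with the lowest correlation with Arntl. Other clock genes and cell type markers, listed for use, could not be matched, since 0 of the identifiers are paired with a symbol in the reference tables. Promoters came from RefSeq (GRCr8), matched by symbol for all 7 genes.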

Additional observations from a re-analysis of the deposited data

How the results depend on the processing

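The differences of Arntl, Dbp and Per3 in the comparisons with isoproterenol alone kept their direction in 171 of 171 alternatives. These are 9 differences under 19 settings each, refitted on the same libraries, so they are not independent checks. Leaving out a library of neither compared group could hardly change a difference (Arntl in isoproterenol against control, 2.68 without canagliflozin library 78). Numbers of genes called moved from 0. DESeq2 called 204 genes between canagliflozin and control, 12 between exercise and control, 2 between canagliflozin and isoproterenol, 1 between exercise and canagliflozin, 113 in the joint test and 41 for the slope on Arntl, where 2 were clock genes (Dbp and Per3). Without libraries 57, 78, 95 and 98, a set known from earlier results, 1 control library is left, so no calls are given for it. The Arntl difference between exercise and isoproterenol was then -3.34. That set drops the exercise library highest in Arntl and the isoproterenol library lowest in it. With the length trend as a covariate, 1 gene was called for the slope. With 1 library left out at a time, calls ranged from 0 to 2688 for isoproterenol against control, 0 to 3900 for canagliflozin against control, 0 to 2766 for exercise against control and 0 to 1332 in the joint test, each highest without control library 115, which leaves library 95 as the only control, assumed to vary like the other groups. They ranged from 0 to 1 for the slope, the 1 without exercise library 103. No clock gene was called in the refits with 1 library left out at a time.

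Slopes on Arntl turned sign for Clock (0.10) and Nr1d1 (0.20) with the length trend, and for Clock (1.84), Per1 (1.52) and Per2 (0.58) without the 4 libraries. With 1 library left out they ranged from -0.27 to 0.22 for Clock and from -1.50 to 0.35 for Nr1d1, and the Arntl difference between exercise and control from -0.44 to 1.64. Of the 15 pairs, 1 to 2 were called with 1 library left out, 2 with library totals alone, 2 in the isoproterenol-treated libraries, 0 centred on group means and 0 without the 4 libraries. Of the 6 relations with Arntl in its lower range, 0 were called with library totals alone. The cause of these changes was not tested. No paired analysis was possible because the groups share no library number. The groups held 2 or 3 libraries, and the fewest counts behind a clock gene value were 36.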

Other observations

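The 5 libraries in the higher range of Arntl have the numbers 57, 78, 79, 98 and 119 in their labels, and the 6 in the lower range have 95, 103, 113, 115, 133 and 143. What the numbers stand for is not said in the labels.

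With a covariate for a number below 100, an alternative chosen after seeing the data, the difference between isoproterenol and control was 2.67 for Arntl, -2.10 for Dbp and -0.97 for Per3 on the log2 scale (edgeR adjusted p = 0.462 for each). The slope within groups on Arntl was then -0.60 for Dbp and -0.47 for Per3. It was -0.85 for Per2, -0.76 for Per1, -0.13 for Nr1d1 and -0.02 for Clock. In either test 0 genes were called. Of the 14978 genes, 367 were under an unadjusted p of 0.05 for that slope, against 861 without the covariate.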
